A study of Mus musculus with 4 samples.

Results

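The 10 genes described here are checkpoint and tissue residency genes of T cells, 10 of the 32285 genes in the deposited count tables. They were taken by gene symbol, with earlier results of these data known, and all 10 symbols were found. Pdcd1, Lag3, Tigit and Ctla4 encode inhibitory receptors. Tox encodes a transcription factor of long-stimulated T cells. Cd69, Itgae and Itga1 are surface markers of T cells that stay in tissue, and S1pr1 and Il7r encode receptors tied to recirculation and survival.

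Single cells of cortex were sequenced in droplets with 3′ UMI libraries, from male C57BL/6N mice aged 10 months, with 1 library for each of 4 groups. The sham isotype library came from mice with sham surgery that received an isotype control antibody for 10 weeks. The stroke isotype library came from mice with dMCAO, a stroke model in which a distal branch of the middle cerebral artery is blocked, and the same control antibody for 10 weeks. The anti-VCAM1 and anti-VLA4 libraries came from mice with dMCAO that received, for 10 weeks, an antibody against the endothelial adhesion molecule VCAM1 or against VLA4, its integrin receptor on leukocytes. Each library was 1 pool of tissue from 4 to 5 mice, taken as the stroke core with about 2 mm of surrounding cortex, and the labels give the same tissue for the sham group. Cells were stained for CD31 and CD45 and dead cells were left out, but which of the stained fractions were kept is not stated in the labels. Every comparison below is therefore a comparison of libraries and not of conditions, no test between groups was possible, and all intervals are 95% intervals that cover counting error only. Differences between pools of mice, dissociations or lanes cannot be told apart from the effect of surgery or antibody.

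Checkpoint receptors are induced when a T cell is stimulated through its antigen receptor, and they dampen further stimulation when they meet their ligands on other cells. T cells that remain in a tissue after inflammation keep CD69 on their surface, which binds the sphingosine-1-phosphate receptor S1PR1 and removes it, so that the cells no longer follow sphingosine-1-phosphate out of the tissue. Many of them also carry the integrin chains CD103 (Itgae) and CD49a (Itga1), which hold cells to E-cadherin and to collagen. T cells of this kind are known to persist in brain after infection or injury.

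The annotated genes lie, in GENCODE M21 on GRCm38, at chr1:94038305-94052553 on the minus strand for Pdcd1 and at chr1:60887000-60915832 on the plus strand for Ctla4. Lag3 lies at chr6:124904361-124911705 and Cd69 at chr6:129267325-129275436, both on the minus strand. Tigit lies at chr16:43648867-43664146, Tox at chr4:6686353-6991557 and Itga1 at chr13:114953096-115101964, all on the minus strand. Itgae lies at chr11:73090583-73147446 on the plus strand, and S1pr1 at chr3:115710433-115715072 and Il7r at chr15:9505788-9530176 lie on the minus strand. Several members share their span with another gene: Itga1 with Pelo on the same strand, and Itgae with Haspin and Tox with Gm11802 on the other strand. Whether counting used the strand or introns is not given in the sources used here, so reads of these pairs may not have been told apart. The values below are UMI counts over whole genes, scaled by the total UMIs of the cells summed (CPM, the usual counts-per-total scale), and are compared between cells and libraries rather than between genes.

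Promoter sequences of 3 members are shown because these genes carry the main differences below: of the members with UMIs in both libraries, Ctla4 and Itga1 differed most between sham and stroke isotype, in opposite directions, and Pdcd1 was higher in the CD8 subset of every library. The sequences are the 250 bases before the start site in RefSeq (GRCm38.p6), and 5 of the 10 members had an entry. Capitals mark each match to GGAAA, the core bound by NFAT factors, which act downstream of the T cell receptor, searched on both strands (TTTCC on the strand shown). The AP-1 motif TGANTCA, also searched on both strands, was in none of the 5. The Ctla4 stretch is chr1:60908775-60909024 on the plus strand, the Pdcd1 stretch chr1:94052554-94052803 on the minus strand and the Itga1 stretch chr13:115101965-115102214 on the minus strand. The RefSeq start of Ctla4 lies inside the longer GENCODE span given above.
Ctla4: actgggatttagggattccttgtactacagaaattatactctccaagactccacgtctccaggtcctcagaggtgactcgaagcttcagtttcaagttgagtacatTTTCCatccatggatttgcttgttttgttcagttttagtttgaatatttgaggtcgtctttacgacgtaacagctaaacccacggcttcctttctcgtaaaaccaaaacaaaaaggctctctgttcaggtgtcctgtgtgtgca
Pdcd1: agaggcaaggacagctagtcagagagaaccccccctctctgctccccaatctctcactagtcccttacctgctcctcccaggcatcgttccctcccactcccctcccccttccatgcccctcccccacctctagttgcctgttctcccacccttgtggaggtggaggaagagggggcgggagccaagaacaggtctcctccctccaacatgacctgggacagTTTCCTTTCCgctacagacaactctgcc
Itga1: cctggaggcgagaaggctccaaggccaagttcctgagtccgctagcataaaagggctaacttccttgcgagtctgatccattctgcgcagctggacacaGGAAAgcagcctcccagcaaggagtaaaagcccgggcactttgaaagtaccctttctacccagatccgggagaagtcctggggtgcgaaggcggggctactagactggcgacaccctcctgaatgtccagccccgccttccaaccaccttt
GGAAA occurred 2 times in the Pdcd1 and Tigit stretches and 1 time in those of Ctla4, Itga1 and Il7r, against at least 1 match in 55.6% and at least 2 in 21.4% of all 32851 promoters of that length, and TGANTCA occurred in 6.75% of them. A match in letters is a description of the sequence and not a bound site.

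In all that follows, 4 values in a row are those of the sham isotype, stroke isotype, anti-VCAM1 and anti-VLA4 libraries, in that order. The libraries held 1516, 2832, 4662 and 6209 cells after filtering, with median UMI counts per cell between 4516.5 and 5466. T-cell-like cells numbered 45, 215, 88 and 188, with 243293, 986864, 398732 and 753354 UMIs and medians of 4894, 4398, 4476.5 and 3685.5 UMIs per cell. They were 2.97%, 7.59%, 1.89% and 3.03% of the kept cells. All 10 T cell markers were detected in each library. Of 8 natural killer markers, Ncr1, Klra8 and Klra4 were at 0 in the T-cell-like cells of every library, and the other 5 were detected. The summed level of the natural killer markers was 654, 329, 369 and 427 CPM, highest in sham. In natural killer-like cells it was 2638, 2562, 3338 and 5355 CPM. Sham and stroke isotype shared 59 cell barcodes and the other pairs of libraries 1 to 8, none of them a T-cell-like cell in both.

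Microglial and endothelial markers were present at low levels in the T-cell-like cells. Of 8 microglial markers, 3, 7, 7 and 8 were detected, and their summed level was 69.9, 120, 105 and 141 CPM, against 12827 to 13525 CPM in microglia-like cells. Of 8 endothelial markers, 4, 6, 5 and 8 were detected, at 82.2, 64.9, 57.7 and 305 CPM, against 17204 to 18411 CPM in endothelial-like cells. The anti-VLA4 library thus had the most endothelial RNA among its T-cell-like cells. The part of such RNA in the values below was not tested. The level that it would bring at the marker ratio is given beside Lag3, Itga1 and S1pr1, which those cells carry at the highest levels. Microglia-like cells also had Il7r at a mean of 30.7 CPM and Itgae at 6.88 CPM. At the microglial marker ratio this would bring at most 0.33 CPM of Il7r, 0.08 CPM of Itgae and 0.46 CPM of S1pr1 in any library.

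The CD8 subset, the T-cell-like cells with at least 1 UMI of Cd8a or Cd8b1, held 35, 122, 61 and 126 cells. Its share was 77.8% (62.9 to 88.8), 56.7% (49.8 to 63.5), 69.3% (58.6 to 78.7) and 67.0% (59.8 to 73.7). After each cell was thinned to 1000 UMIs the shares were 47.7%, 44.5%, 56.0% and 50%, so the gap between the sham and stroke isotype libraries was smaller at equal depth. The no-CD8 subset held 10, 93, 27 and 62 cells, and 5, 38, 5 and 9 of these had a Cd4 UMI. Cells with a UMI of Foxp3, the defining factor of regulatory T cells, numbered 0, 7, 0 and 2, and cells with a UMI of Trdc, a gamma delta T cell receptor gene, numbered 1, 9, 3 and 10. The 10 sham cells of the no-CD8 subset are few, and ratios that rest on them have wide intervals.

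Across the tissue, T-cell-like cells had the highest mean level of 6 of the 10 genes among the named classes with at least 20 cells in a library. These were Pdcd1 at a mean of 156 CPM over libraries (range 115 to 173), Tigit at 79.2 CPM (49.3 to 96.9) and Tox at 1055 CPM (707 to 1295), where the next class reached 6.46 CPM in B-cell-like cells for Pdcd1, 2.08 CPM in B-cell-like cells for Tigit and 154 CPM in astrocyte-like cells for Tox, with no overlap of the ranges. Il7r was also set apart among these classes, at 461 CPM (271 to 645) against 42.8 CPM (37.5 to 47.6) in dendritic-like cells. Cd69 at 233 CPM (176 to 304) was followed by plasma-cell-like cells of 1 library at 179 CPM, inside that range, and B-cell-like cells at 112 CPM (60.8 to 145). Ctla4 at 183 CPM (86.3 to 347) was followed by plasma-cell-like cells of 1 library at 67.6 CPM, without overlap. B-cell-like cells came next at 36.7 CPM (6.89 to 57.2), also without overlap. Natural killer-like cells, at 16, 15, 10 and 7 by library, were too few to be ranked. Pooled, these 48 cells had Pdcd1 at 152, Tigit at 54.3, Tox at 927, Il7r at 228, Cd69 at 120 and Ctla4 at 235 CPM. A mixed sub-cluster of 21 cells, also not ranked, had Il7r at 647 CPM, Pdcd1 at 139 CPM and no Tigit UMI.

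The other 4 genes were higher elsewhere. Lag3 was highest in microglia-like cells, at 211 CPM (203 to 225), and its range in T-cell-like cells of 0 to 47.8 CPM overlapped that of B-cell-like cells of 13.2 to 66.3 CPM. S1pr1 was led by endothelial-like cells at 852 CPM (814 to 869), pericyte-like cells at 558 CPM (516 to 587) and astrocyte-like cells at 471 CPM (415 to 538), and the T-cell-like range of 27.6 to 40.5 CPM overlapped that of microglia-like cells of 35.7 to 47.3 CPM. Itga1 was highest in pericyte-like cells at 755 CPM (646 to 938) and endothelial-like cells at 538 CPM (477 to 602), above T-cell-like cells at 226 CPM (122 to 390). Itgae, at 33.3 CPM (11.2 to 45.4) in dendritic-like cells and 20.9 CPM (5.02 to 43.8) in T-cell-like cells, had overlapping ranges in the 2 classes.

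**Figure D1:**
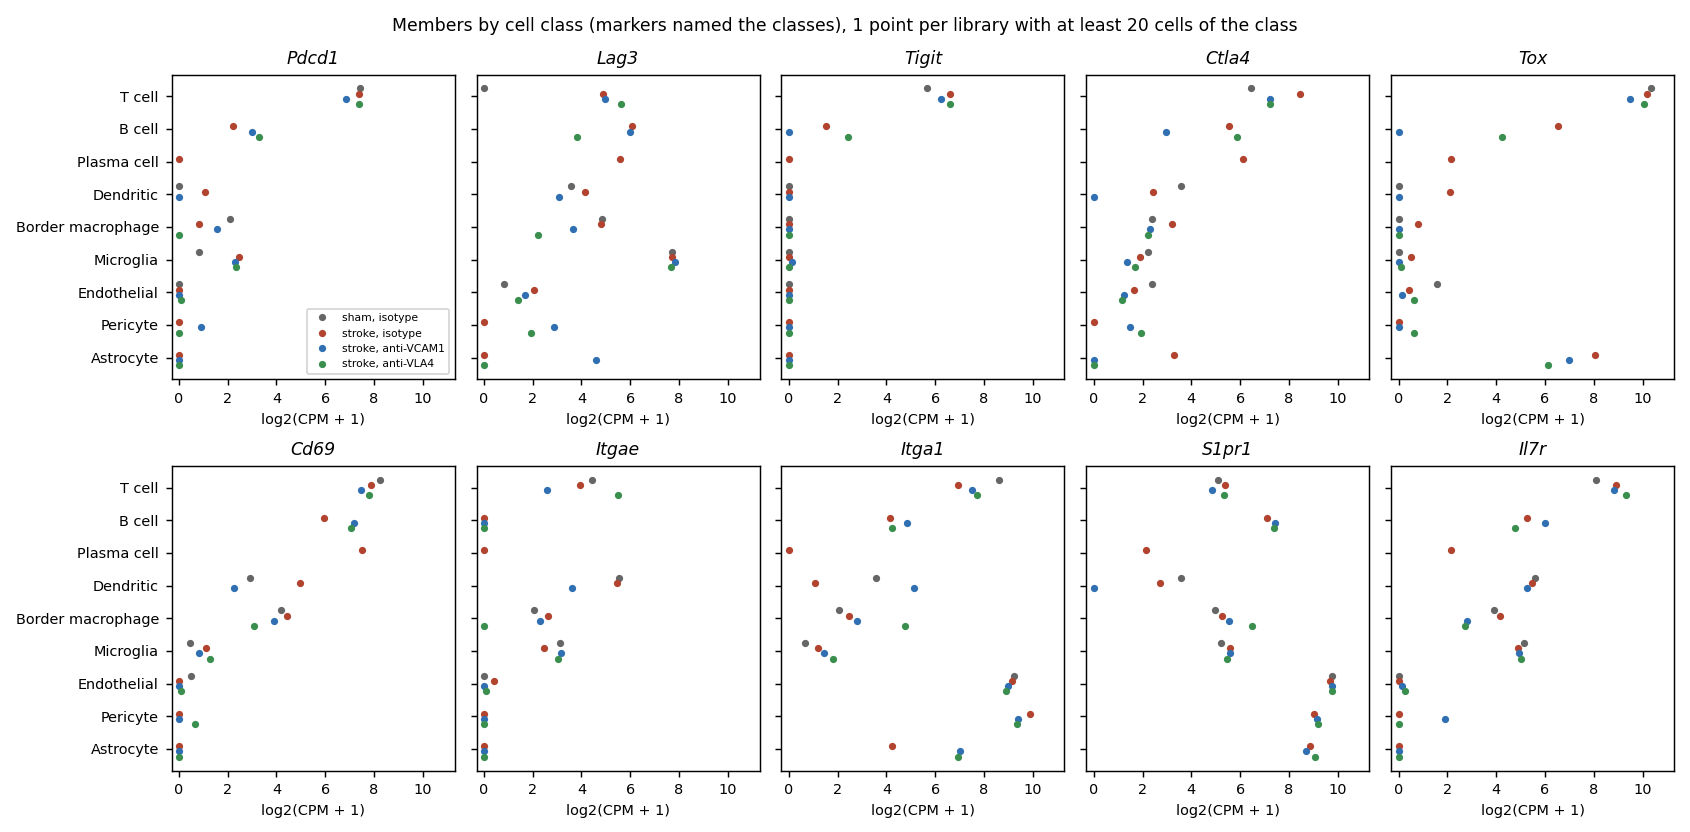
Level of each gene by cell class, as log2(CPM + 1) on the horizontal axis, with 1 point for each library that held at least 20 cells of the class. Pdcd1, Tigit, Ctla4, Tox, Cd69 and Il7r reach their highest points in T-cell-like cells, Lag3 in microglia-like cells, S1pr1 in endothelial-like cells and Itga1 in pericyte-like cells.

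Among the checkpoint receptors with UMIs in every library, which leaves out Lag3, Ctla4 differed most between libraries. Its product competes with the costimulatory receptor CD28 for CD80 and CD86. T-cell-like cells held 21, 342, 59 and 113 Ctla4 UMIs, or 86.3 (53.4 to 132), 347 (311 to 385), 148 (113 to 191) and 150 (124 to 180) CPM. The stroke isotype library stood above the other 3, with no overlap of its interval with theirs. The log2 ratio was 1.99 (1.37 to 2.72) for stroke over sham isotype, -1.22 (-1.65 to -0.83) for anti-VCAM1 over stroke isotype, and -1.20 (-1.53 to -0.90) for the anti-VLA4 library over it. Both antibody comparisons use the same stroke isotype library, so their Ctla4 values are not independent of each other.

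Ctla4 was then taken apart by CD8. In the no-CD8 subset the gene had 3, 221, 2 and 66 UMIs, or 64.7, 589, 19.4 and 294 CPM, and in the CD8 subset 18, 121, 57 and 47 UMIs, or 91.4, 198, 193 and 88.8 CPM. In the CD8 subset the log2 ratio was 1.10 (0.39 to 1.92) for stroke over sham, -0.04 (-0.52 to 0.43) in anti-VCAM1, and -1.15 (-1.67 to -0.66) for the anti-VLA4 library. In the no-CD8 subset it was 3.17 (1.62 to 5.48), -4.86 (-7.98 to -3.06) and -0.9999 (-1.42 to -0.60), the last just short of 2-fold. Of the 66 anti-VLA4 UMIs there, 25 came from 1 of 62 cells. That last ratio ranged from -2.96 to -0.84 over the alternatives, so its place at 2-fold was not stable. The anti-VCAM1 library was thus low for Ctla4 in cells without CD8 and level with stroke isotype in cells with it, while the anti-VLA4 library was lower in both; the difference between subsets was not tested.

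A large share of the Ctla4 RNA sat in 1 small group of cells. A sub-cluster of 35 T-cell-like cells led by Gpm6b, Itgb8, Penk, Tnfrsf4 and Ikzf2, with a Foxp3 UMI in 22.9% of its cells, had 196 of the 535 Ctla4 UMIs, or 1528 CPM, and held 1, 26, 0 and 8 cells of the 4 libraries. All 9 cells with a Foxp3 UMI, whichever their sub-cluster, had Ctla4, with 99 UMIs or 3047 CPM. Without that sub-cluster the log2 ratio was 1.54 (0.88 to 2.32) for stroke over sham, -0.64 (-1.09 to -0.22) for anti-VCAM1 over stroke isotype and -1.63 (-2.10 to -1.20) for anti-VLA4. The anti-VCAM1 value then no longer passed 2-fold, and the anti-VLA4 value lay farther from 0.

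Pdcd1, whose product PD-1 is bound by PD-L1 and PD-L2, was level across most libraries. T-cell-like cells held 42, 165, 46 and 126 UMIs, or 173 (124 to 233), 167 (143 to 195), 115 (84.5 to 154) and 167 (139 to 199) CPM. Anti-VCAM1 was the lowest, with a log2 ratio of -0.53 (-1.04 to -0.06) over stroke isotype. For stroke over sham the ratio was -0.05 (-0.54 to 0.48) and for anti-VLA4 0.00 (-0.35 to 0.34), so a 2-fold difference lay outside both intervals. In the CD8 subset the levels were 188, 217, 139 and 204 CPM, and in the no-CD8 subset 108, 85.3, 48.4 and 80.2 CPM.

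Tigit encodes an inhibitory receptor for the nectin-family ligand CD155. It had 12, 94, 30 and 73 UMIs, or 49.3 (25.5 to 86.2), 95.3 (77.0 to 117), 75.2 (50.8 to 107) and 96.9 (76.0 to 122) CPM. Sham was the lowest, with a log2 ratio of 0.94 (0.08 to 1.95) for stroke over sham, and the antibody libraries did not differ from stroke isotype beyond counting error, at -0.34 (-0.98 to 0.27) and 0.02 (-0.44 to 0.48). All 12 sham UMIs lay in the CD8 subset, so the no-CD8 subset had 0, 33, 5 and 14 UMIs. With the floor of 3 counts for the 10 sham cells, the no-CD8 level in stroke isotype was 1.36-fold that of sham. This fold leaves out the counting error of stroke isotype, and the interval of the log2 ratio began at 0.06.

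Lag3, an inhibitory receptor that binds MHC class II, was not detected in the sham T-cell-like cells. It had 0, 28, 12 and 36 UMIs, or 0 (up to 12.3 by the limit of 3 counts), 28.4 (18.9 to 41.0), 30.1 (15.6 to 52.6) and 47.8 (33.5 to 66.2) CPM. Against that floor the stroke isotype level was 2.30-fold that of sham. Within the CD8 subset, where the UMIs were 0, 21, 11 and 31, it was 2.25-fold. These folds leave out the counting error of stroke isotype. The Poisson intervals of sham also end above the floor, at 15.2 CPM in all T-cell-like cells and 18.7 CPM in the CD8 subset. The intervals of the log2 ratio began at 0.81 in all T-cell-like cells and 0.74 in the CD8 subset, both under 2-fold. The log2 ratio over stroke isotype was 0.08 (-1.03 to 1.11) in anti-VCAM1, and 0.73 (-0.00 to 1.52) for the anti-VLA4 library. Microglial RNA at the marker ratio would bring 1.07, 1.96, 1.75 and 2.18 CPM, well under the levels of the 3 stroke libraries.

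The 0 of Lag3 in sham depended on which cells were counted as T cells. When the T cell cluster was taken whole, with its natural killer-like cells and cells that carried microglial markers, the log2 ratio for stroke over sham was -1.16, and it was 0.61 with T cells picked cell by cell from the markers of each. Lag3 UMIs were in 5 of 16 sham natural killer-like cells, against 0 of 45 sham T-cell-like cells. By a limit of 3 cells, the latter allows a share with a Lag3 UMI of up to 6.67%, and a Clopper-Pearson limit would be wider.

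Tox had the most UMIs of the 10 genes and differed little between 3 of the libraries. It had 315, 1142, 282 and 800 UMIs, or 1295 (1156 to 1446), 1157 (1091 to 1226), 707 (627 to 795) and 1062 (990 to 1138) CPM. The anti-VCAM1 library was lower than the other 3, with a log2 ratio of -0.71 (-0.90 to -0.52) over stroke isotype, and anti-VLA4 was at -0.12 (-0.26 to 0.01). Of the 315 sham UMIs, 103 came from 1 cell. Without the cell with the most UMIs of the gene in each library, the ratio for stroke over sham moved from -0.16 (-0.34 to 0.02) to 0.37 (0.15 to 0.58). In the CD8 subset the levels were 1463, 1270, 873 and 1102 CPM, and in the no-CD8 subset 582, 973, 233 and 967 CPM, and the log2 ratio for anti-VCAM1 was -0.54 (-0.75 to -0.34) in the first and -2.06 (-2.73 to -1.47) in the second.

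**Figure D2:**
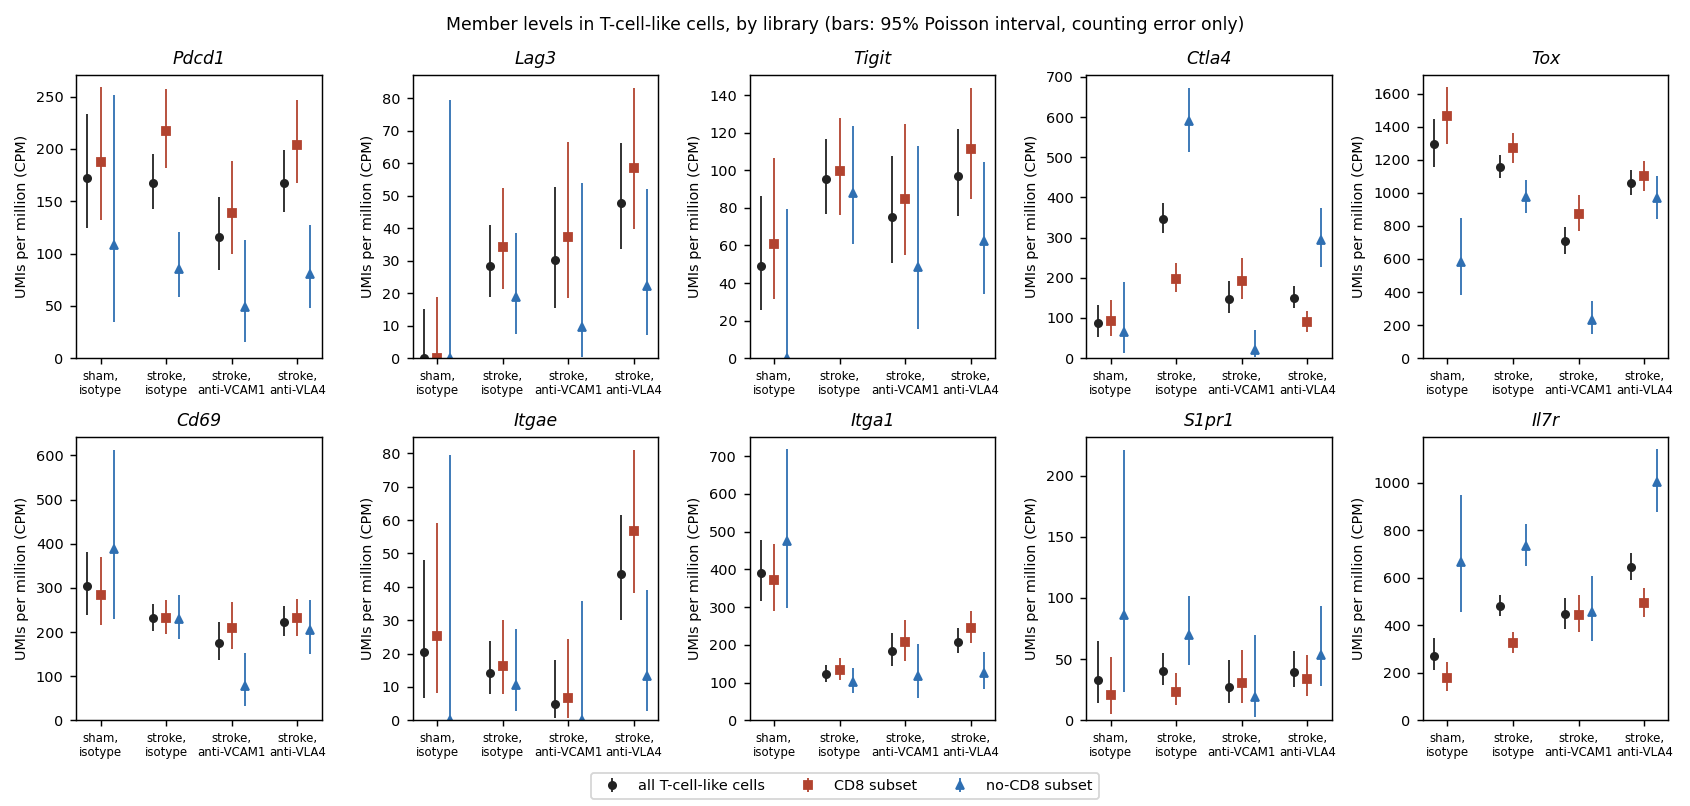
Level of each gene in CPM (vertical axis, linear, from 0) in all T-cell-like cells, the CD8 subset and the no-CD8 subset of each library, with 95% Poisson intervals as bars. Ctla4 peaks at 589 CPM in the no-CD8 subset of stroke isotype, and Itga1 is highest in sham isotype in all 3 sets of cells.

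Among the residency genes rated for stroke over sham isotype, which left out Itgae, Itga1 had the ratio farthest from 0, opposite in direction to Ctla4. Its product pairs with that of Itgb1 to bind collagen. T-cell-like cells held 95, 120, 73 and 157 UMIs, or 390 (316 to 477), 122 (101 to 145), 183 (144 to 230) and 208 (177 to 244) CPM. Sham was the highest, stroke isotype the lowest, and both antibody libraries lay between them. The log2 ratio was -1.68 (-2.08 to -1.28) for stroke over sham, 0.59 (0.15 to 1.02) in anti-VCAM1, and 0.77 (0.43 to 1.13) for the anti-VLA4 library. Endothelial RNA at the marker ratio would bring 2.69, 2.09, 1.70 and 8.46 CPM, small beside these levels.

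The Itga1 difference between sham and stroke isotype was present with and without CD8. Levels were 371, 134, 206 and 244 CPM in the CD8 subset and 474, 101, 116 and 125 CPM in the no-CD8 subset. The ratio for stroke over sham was -1.46 (-1.94 to -0.99) in the first and -2.22 (-3.02 to -1.40) in the second. Thinned to 1000 UMIs a cell, 31.8%, 8.13%, 20.2% and 13.7% of T-cell-like cells had an Itga1 UMI, against 62.2%, 22.8%, 39.8% and 35.1% unthinned. The stroke over sham value was -0.91 when the T cell cluster was taken whole.

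Cd69, an early activation marker as well as a residency marker, was highest in sham and lowest in anti-VCAM1. It had 74, 228, 70 and 168 UMIs, or 304 (239 to 382), 231 (202 to 263), 176 (137 to 222) and 223 (191 to 259) CPM. The log2 ratio was -0.40 (-0.78 to 0.00) for stroke over sham and -0.39 (-0.80 to -0.00) for anti-VCAM1, both with an interval that ended close to 0, and -0.05 (-0.35 to 0.24) for anti-VLA4. Within the no-CD8 subset the levels were 388, 229, 77.5 and 205 CPM. There the log2 ratio of anti-VCAM1 over stroke isotype was -1.55 (-2.82 to -0.52) with 8 against 86 UMIs. Of those 86 UMIs, 26 came from 1 cell, and this ratio ranged from -1.80 to -0.16 over the alternatives.

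Itgae, the chain that pairs with the product of Itgb7 to bind E-cadherin, was sparse everywhere. It had 5, 14, 2 and 33 UMIs in 3, 11, 1 and 18 cells, or 20.6 (6.67 to 48.0), 14.2 (7.76 to 23.8), 5.02 (0.607 to 18.1) and 43.8 (30.2 to 61.5) CPM. The anti-VLA4 library was the highest, with a log2 ratio of 1.56 (0.69 to 2.64) over stroke isotype, and 30 of its 33 UMIs lay in the CD8 subset. The other 2 comparisons had under 20 UMIs and were not rated.

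S1pr1, the receptor that CD69 opposes, did not differ between libraries beyond counting error. It had 8, 40, 11 and 30 UMIs, or 32.9 (14.2 to 64.8), 40.5 (29.0 to 55.2), 27.6 (13.8 to 49.4) and 39.8 (26.9 to 56.8) CPM. The 3 log2 ratios all had intervals that held 0, at 0.29 (-0.81 to 1.61), -0.54 (-1.67 to 0.43) and -0.02 (-0.76 to 0.69). Endothelial RNA at the marker ratio would bring 3.85, 3.02, 2.91 and 15.3 CPM, the last a sizeable part of the anti-VLA4 level. After thinning to 1000 UMIs, 0, 4, 1 and 5 T-cell-like cells had an S1pr1 UMI, or 0%, 1.91%, 1.19% and 2.75%. In microglia-like cells the share was 3.19% to 5.02%. Those cells carried S1pr1 at 35.7 to 47.3 CPM, so their share is not a background level for T-cell-like cells. Microglia-like cells had medians of 5201 to 7341.5 UMIs before thinning, and unthinned shares of 17.4% to 20.5% for S1pr1 against 8.51% to 15.6% in T-cell-like cells.

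Il7r encodes the receptor chain for interleukin-7, a survival factor of resting and memory T cells. It had 66, 474, 178 and 486 UMIs, or 271 (210 to 345), 480 (438 to 526), 446 (383 to 517) and 645 (589 to 705) CPM. Sham was the lowest and anti-VLA4 the highest, with log2 ratios of 0.82 (0.45 to 1.22) for stroke over sham, -0.11 (-0.36 to 0.15) for the anti-VCAM1 library and 0.42 (0.24 to 0.61) for anti-VLA4. A single sham cell held 25 of the 66 sham UMIs, and without the top Il7r cell of each library the first value was 1.45 (0.99 to 1.95). In the CD8 subset the levels were 178, 325, 443 and 493 CPM, so the sham library was the lowest and the antibody libraries the highest. In the no-CD8 subset they were 668, 733, 455 and 1003 CPM, with anti-VCAM1 the lowest and a stroke over sham value of 0.13 (-0.40 to 0.72), and the top sham cell held 25 of the 31 sham UMIs there.

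Counted together in all T-cell-like cells, 9 members had at least 20 UMIs in the stroke over sham comparison. Of these, 2 (Lag3, with sham set to the floor, and Ctla4) were at least 2-fold higher, against 7.09% of the 6555 genes rated. At least 2-fold lower was 1 (Itga1), against 4.61%. For anti-VCAM1, 0 of 9 rated members were at least 2-fold higher, against 1.9% of 6881 genes, and 1 (Ctla4) was lower, against 5.9%. For anti-VLA4, 1 of 10 (Itgae) was higher, against 2.06% of 7557 genes, and 1 (Ctla4) was lower, against 2.61%. Their median log2 ratios were 0.29, -0.39 and 0.01, against -0.02, -0.04 and -0.01 over all genes. With so few members, these counts describe single genes and not the 10 as a group.

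Within the CD8 subset, 2 of 8 rated members (Lag3 and Ctla4) were at least 2-fold higher in stroke than in sham isotype, against 5.26% of genes. Lag3 was again taken with sham set to the floor. Lower was 1 (Itga1), against 6.47%. For anti-VCAM1, 0 of 9 were higher and 0 lower, against 2.48% and 4.5%, and for anti-VLA4, 1 of 10 (Itgae) was higher and 1 (Ctla4) lower, against 3.03% and 2.51%. Within the no-CD8 subset, 1 of 8 (Ctla4) was higher and 1 (Itga1) lower for stroke, against 14% and 9.55%. For anti-VCAM1 in that subset, 0 of 8 were higher, against 3.24%, and 4 (Ctla4, Tox, Cd69 and S1pr1) were lower, against 13.2%; the S1pr1 value of -1.79 (-4.96 to 0.16) had an interval that held 0. For anti-VLA4 no member reached 2-fold in either direction, against 2.89% and 6.25%. Ctla4 was just short of it there, and its ratio ranged from -2.96 to -0.84 over the alternatives. The 4 lower members of the anti-VCAM1 no-CD8 subset rest on 27 cells.

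**Figure D3:**
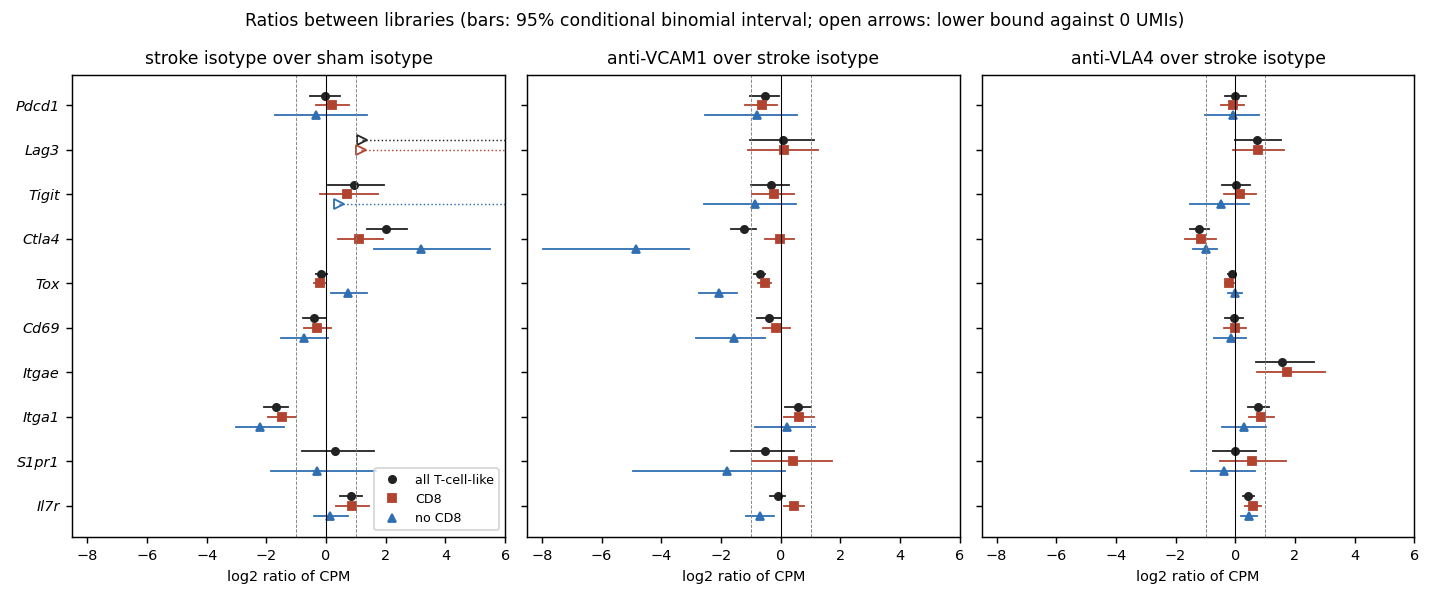
Log2 ratio of CPM between libraries (horizontal axis) for each gene, with 95% counting intervals. All T-cell-like cells, the CD8 subset and the no-CD8 subset are drawn apart. Dashed lines mark 2-fold, and open arrows the ratio with 0 UMIs set to the floor of 3 counts. Genes under 20 UMIs over both libraries are not drawn. Ctla4 lies right of 0 and Itga1 left of 0 in all 3 sets for stroke over sham.

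Cells with and without CD8 could be compared within each library, where both subsets share mice, dissociation and lane. The subsets were split by detection of a CD8 UMI and differed in depth. Median UMIs per cell were 5042, 4749.5, 4720 and 3863.5 with CD8 and 3269.5, 3769, 3985 and 3524 without. The no-CD8 subset may also hold CD8 T cells whose Cd8a and Cd8b1 RNA was missed, and their part was not tested. Pdcd1 was higher in the CD8 subset of all 4 libraries, with log2 ratios of 0.80, 1.34, 1.499 and 1.34 and a mean of 1.24 ± 0.31 (SD, n = 4). Tox was higher in all 4 as well, by 1.33, 0.38, 1.90 and 0.19, a mean of 0.95 ± 0.81 (SD, n = 4). The sham interval of Pdcd1 (-0.55 to 2.51) and the anti-VLA4 interval of Tox (-0.04 to 0.42) held 0. In the no-CD8 subset all 5 sham UMIs of Pdcd1 came from 1 of 10 cells. Of the 5 such UMIs in anti-VCAM1, 4 came from 1 of 27 cells. The sham ratio of Pdcd1 ranged from 0.50 to 7.88 over the alternatives. Il7r was lower in all 4, by -1.91, -1.17, -0.04 and -1.02, a mean of -1.03 ± 0.77 (SD, n = 4), though the anti-VCAM1 value lay at 0 within its interval. Over 4 libraries an exact two-sided sign-flip test can give no p below 0.125, and directions were counted and not tested.

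For Tigit and Itgae, 1 or more libraries had 0 UMIs in the no-CD8 subset. Tigit had 12 against 0 UMIs in sham and log2 ratios of 0.18, 0.79 and 0.83 in the stroke libraries. Itgae had 5 against 0 UMIs in sham, 2 against 0 in anti-VCAM1, and ratios of 0.57 and 2.01 in stroke isotype and anti-VLA4. At 3 counts the limit for the no-CD8 subset was 64.7 CPM in sham and 29.1 CPM in anti-VCAM1. These lie above the CD8 levels of 60.9 CPM for Tigit in sham and of 25.4 and 6.77 CPM for Itgae in sham and anti-VCAM1, so the direction in those libraries was not established. With a subset at 0 set to that limit, a choice made after seeing the data, 2 of the 10 members (Pdcd1 and Tox) were higher with CD8 in every library, against 4.51% of 8289 genes, and 1 (Il7r) was lower, against 12.3%. With 0 UMIs read as the lower value, 4 were higher, against 7.13%, and 1 was lower, against 11.6%.

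The remaining members did not keep 1 direction. Ctla4 was at 0.49, -1.57, 3.25 and -1.72, higher with CD8 in 2 libraries and lower in 2. S1pr1 was lower with CD8 in 3 of 4, at -2.03, -1.56, 0.63 and -0.64, and Itga1 and Cd69 were higher in 3 of 4, at -0.35, 0.40, 0.82 and 0.96 and at -0.45, 0.02, 1.42 and 0.17. Lag3 was higher in the 3 stroke libraries, at 0.84, 1.84 and 1.36, and had no UMI in either sham subset. Pdcd1 kept its direction in all 4 libraries under each alternative that was run, and Tox under each but thinning to 1000 UMIs. Tigit lost it under that thinning and without small sub-clusters, and Itgae without the top cells, while thinning left it under the 20 UMIs needed for rating. Il7r lost it in at least 1 library under 5 of them, and in the sham library the value turned to 0.082 without its top cell.

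**Figure D4:**
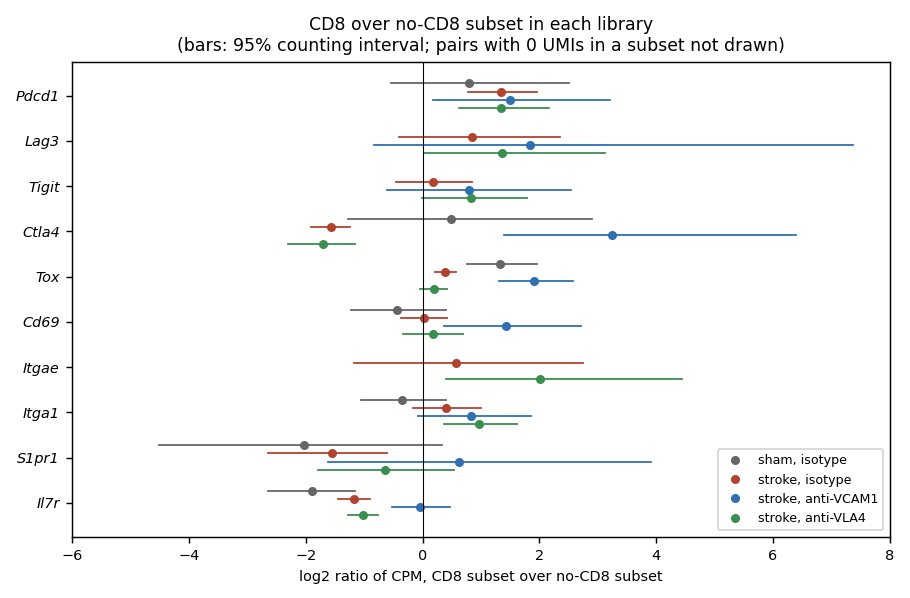
Log2 ratio of CPM in the CD8 subset over the no-CD8 subset (horizontal axis) for each gene and library, with 95% counting intervals; pairs with 0 UMIs in a subset are not drawn. All 4 points of Pdcd1 and Tox lie right of 0 and all 4 of Il7r left of 0, while those of Ctla4 lie on both sides.

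The members also differed between sub-clusters of the T-cell-like cells, which were formed without using the 10 genes. Values here pool the 4 libraries, whose cells are unevenly spread over the sub-clusters, and describe the cells without a test. A sub-cluster led by Epha3 (103 cells; 9, 46, 19 and 29 by library) had the highest Tox, 2399 CPM in 98 of 103 cells, and the highest Pdcd1, 302 CPM, with Tigit at 166 CPM. The sub-cluster led by Gzmk, a granzyme gene, and also by the chemokine gene Ccl5 (117 cells; 4, 50, 16 and 47) had the highest Lag3, 67.7 CPM, with Pdcd1 at 234 CPM and low Itga1, at 89.6 CPM. Cd8a was detected in 75.7% and 72.6% of the cells of these sub-clusters.

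Itga1 was highest in a different sub-cluster, led by Cd40lg and also by Traj18, Il12rb2 and P2rx7 (68 cells; 16, 25, 9 and 18). There it reached 557 CPM in 42 of 68 cells, Itgae was at 51.2 CPM, Pdcd1 was low at 28.8 CPM and Lag3 was at 0 UMIs. Cd40lg encodes the CD40 ligand of helper T cells, and Traj18 is the joining segment of invariant natural killer T cell receptors. This sub-cluster made up 16 of 45 sham T-cell-like cells, and 25 of 215 in stroke isotype.

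The Gpm6b-led sub-cluster of 35 cells, described above for Ctla4, also had high Tox, 1973 CPM, and the highest Tigit and S1pr1, 211 and 109 CPM, with no Itga1 UMI. A sub-cluster of 26 cells with gamma delta receptor and interleukin-17 genes (Trdc, Il23r, Il17a; 0, 11, 3 and 12 cells) had the highest Il7r, 1591 CPM in 26 of 26 cells, with Pdcd1 at 219 CPM and no Tigit or Lag3 UMI. In a sub-cluster of 23 cells led by the interferon-induced genes Ifit1, Ifit3 and Isg15, Cd69 was highest, at 466 CPM. Of the other 2 sub-clusters, the 71 cells led by Fam241a and Ly6c2 had Itga1 at 257 CPM and S1pr1 at 64.8 CPM. The 93 cells led by Trim28 had Tigit at 3.11 CPM, in 1 cell, and Tox at 221 CPM, with a median of 3233 UMIs per cell.

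**Figure D5:**
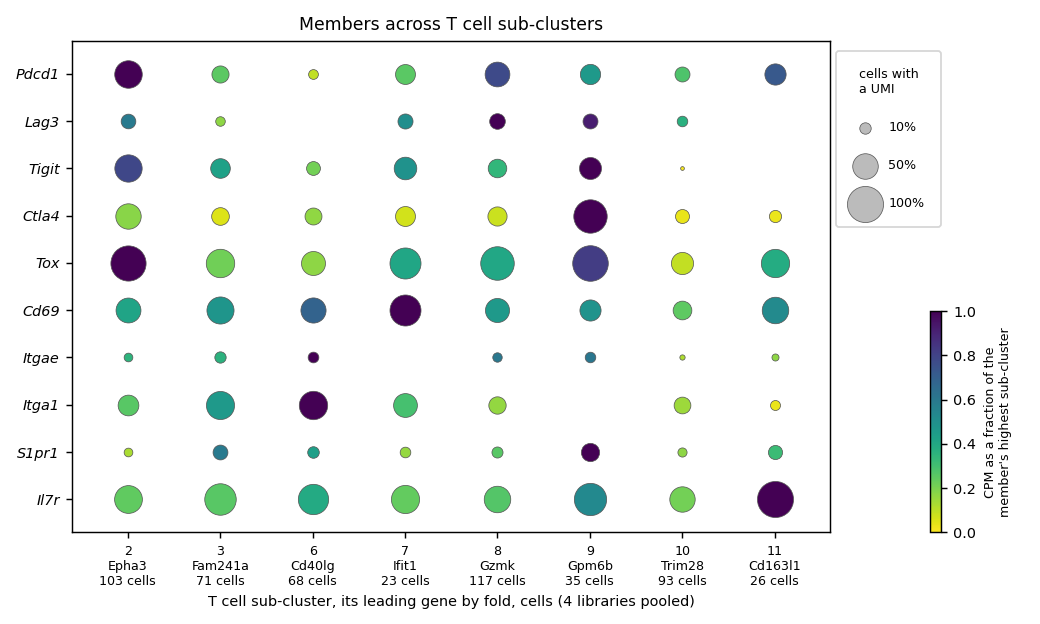
The 10 genes across 8 sub-clusters of T-cell-like cells, named by number and leading gene, with the 4 libraries pooled. Circle area is the percent of cells with a UMI and colour is CPM as a fraction of the gene's highest sub-cluster. Pdcd1 and Tox are darkest in the Epha3-led cells, Itga1 in the Cd40lg-led cells, Ctla4, Tigit and S1pr1 in the Gpm6b-led cells and Il7r in the Cd163l1-led cells.

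In single cells, detection was compared after each cell was thinned to 1000 UMIs, which kept 44, 209, 84 and 182 T-cell-like cells. Ctla4 was found in 9.09%, 28.2%, 11.9% and 7.14% of them, against at most 0.56% of the endothelial-like cells in any library. Pdcd1 was found in 13.6%, 13.9%, 7.14% and 14.3%, and Tox in 54.5%, 55.0%, 42.9% and 39.6%. Il7r was found in 18.2%, 35.4%, 28.6% and 35.2%. Unthinned shares were higher throughout, such as 33.3%, 44.7%, 22.7% and 20.7% for Ctla4, at median depths of 4894, 4398, 4476.5 and 3685.5 UMIs against 3789 to 4404 in endothelial-like cells.

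At 2000 UMIs a cell, with 43, 196, 76 and 168 cells kept, Pdcd1 and Tox were often found in the same cell. Among cells with a Pdcd1 UMI, Tox was present in 77.8%, 88.9%, 50% and 73.2%, from 9, 45, 10 and 41 cells. Among cells without one it was present in 52.9%, 60.9%, 45.5% and 47.2%. At least 2 of the 4 checkpoint receptors were found in 2, 35, 12 and 29 cells, or 4.65%, 17.86%, 15.79% and 17.26%. At 1000 UMIs a cell they were found in 3 of 44, 25 of 209, 5 of 84 and 8 of 182 cells, or 6.82%, 11.96%, 5.95% and 4.40%. The sham share was thus the lowest at 2000 UMIs but above those of both antibody libraries at 1000 UMIs. The order of these libraries therefore depended on the depth. At 2000 UMIs, cells with UMIs of both Cd69 and S1pr1 numbered 1, 2, 1 and 2. These are counts of cells of 1 library each and carry no test.

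Other checkpoint-related genes were followed as a list of 30, made of further inhibitory and costimulatory receptors and transcription factors. Of 26 rated, 3 (Ikzf2, Tnfrsf9 and Tnfrsf4) were at least 2-fold higher and 2 (Nr4a3 and Tbx21) lower in stroke over sham isotype, against 7.09% and 4.61% of all genes rated, and the list median was 0.02 against -0.02. For anti-VCAM1, 0 of 26 were higher and 6 were lower (Tnfrsf4, Slamf6, Tnfrsf9, Btla, Ikzf2 and Cd200r1), against 1.9% and 5.9%, with a median of -0.41 against -0.04. For anti-VLA4, 1 of 27 was higher (Id3, with 33 against 13 UMIs) and 3 were lower (Ikzf2, Slamf6 and Nr4a3), against 2.06% and 2.61%, with a median of -0.33 against -0.01.

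Ikzf2, which encodes Helios, a factor of regulatory and some other T cells, was highest in stroke isotype. It had 25, 409, 66 and 110 UMIs, with log2 ratios of 2.00 (1.43 to 2.66), -1.32 (-1.72 to -0.95) and -1.499 (-1.82 to -1.20), and 344 of the 409 stroke isotype UMIs lay in the no-CD8 subset. Over all libraries, 341 Ikzf2 UMIs, or 2659 CPM, lay in the Gpm6b-led sub-cluster of 1, 26, 0 and 8 cells, whose leading genes include Tnfrsf4 and Slamf6 as well. The costimulatory receptors Tnfrsf4 (OX40) and Tnfrsf9 (4-1BB) had 5, 48, 3 and 19 and 3, 49, 5 and 21 UMIs, with stroke over sham values of 1.20 (-0.08 to 2.93) and 1.93 (0.38 to 4.34). Icos, another costimulatory receptor, was at -0.95 (-1.21 to -0.70) for anti-VLA4, just under 2-fold. Slamf6, a receptor of less differentiated T cells, was at -2.41 (-3.97 to -1.30) for anti-VCAM1 with 6 against 83 UMIs.

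Nr4a3, which is induced by receptor stimulation, and Tbx21, the T-bet factor, were highest in sham. Nr4a3 had 100, 149, 43 and 53 UMIs, or 411, 151, 108 and 70.4 CPM, with -1.44 (-1.82 to -1.06) for stroke over sham and -1.09 (-1.58 to -0.64) for anti-VLA4. Tbx21 had 71, 132, 60 and 78 UMIs and -1.12 (-1.55 to -0.69) for stroke over sham. A list of 12 genes of the dissociation response, in which Fos, Jun and heat shock genes rise when tissue is digested, was also followed. Their sum was 1883, 1948, 1620 and 2146 CPM in the T-cell-like cells. Of 11 rated, 2 were at least 2-fold higher and 1 lower for stroke, against 7.09% and 4.61% of all genes rated. For anti-VCAM1 0 were higher and 2 lower, against 1.9% and 5.9%. For anti-VLA4 2 were higher and 0 lower, against 2.06% and 2.61%. The part of that response in the values of Nr4a3 and Cd69 was not tested. Of 7 cell cycle genes, at most 4 were rated in any comparison and 1 passed 2-fold, downward for anti-VCAM1, against 5.9%. T cells were also picked cell by cell from the markers of each. There 4 of 5 rated cell cycle genes were at least 2-fold lower for stroke over sham. Their median was -2.64, against -0.07 over all genes. For anti-VLA4, 4 of 5 were higher, with a median of 1.91 against -0.01. The share of all genes past 2-fold in that setting is not given here.

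Residency and egress genes beyond the members, 34 of a list of 35 found in the files, were followed in the same way. For stroke over sham, 0 of 27 rated passed 2-fold in either direction, against 7.09% higher and 4.61% lower among all genes, with a median of -0.12 against -0.02. For anti-VCAM1, 2 of 28 (Ahr and Cd5) were at least 2-fold lower and 0 higher, against 5.9% and 1.9%, with a median of 0.09 against -0.04. For anti-VLA4, 1 of 28 (Klf2) was higher, at 1.05 (0.60 to 1.54) with 102 against 64 UMIs, and 0 were lower, against 2.06% and 2.61%, with a median of 0.05 against -0.01. Klf2 encodes the factor that switches on S1pr1, which itself was at -0.02 in that comparison.

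The integrin partners of the members were measured in the same cells. Itgb7, which pairs with Itgae, had 38, 120, 75 and 112 UMIs and was at 0.63 (0.19 to 1.06) for anti-VCAM1, and Itgb1, which pairs with Itga1, had 748, 633, 665 and 627 CPM. Of the other residency genes named by size of change, Runx3 was at -0.52 (-0.85 to -0.18) for stroke over sham, P2rx7 at -0.87 (-1.54 to -0.26) and Cxcr3 at 0.51 (0.13 to 0.89) for anti-VLA4, and Il2rg, the partner chain of Il7r, at 0.61 (0.25 to 0.97) for anti-VCAM1. Cxcr6, a chemokine receptor of resident T cells, was at 436, 492, 617 and 568 CPM. None of these passed 2-fold.

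Ligands of the receptors were found in several neighbouring classes. Cd86, a ligand of Ctla4 and CD28, had means of 849 CPM (652 to 1022) in border-macrophage-like cells, 519 CPM (453 to 575) in microglia-like and 510 CPM (382 to 586) in dendritic-like cells, while Cd80 was highest in dendritic-like cells at 110 CPM (71.2 to 130). Cd274, which encodes PD-L1, was highest in B-cell-like cells at 162 CPM (75.8 to 216), with T-cell-like cells at 68.1 CPM (42.6 to 90.4). The class II gene H2-Aa, for the ligand of Lag3, was at 6793 CPM in dendritic-like cells and 4004 CPM in border-macrophage-like cells, and Pvr, the CD155 ligand of Tigit, at 57.0 CPM in dendritic-like and 32.1 CPM in endothelial-like cells.

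Ligands of the residency genes were measured in the same classes. Col4a1, a collagen chain bound by the Itga1 integrin, was at 425 CPM (379 to 507) in pericyte-like cells and 400 CPM (383 to 411) in endothelial-like cells. Spns2, which exports sphingosine-1-phosphate, was highest in endothelial-like cells at 44.4 CPM (38.6 to 49.7), and the degrading enzyme Sgpl1 in microglia-like cells at 164 CPM (148 to 178). Cdh1, the E-cadherin gene, exceeded 20 CPM only in T-cell-like cells, at 56.1 CPM (34.5 to 82.2), among the classes compared.

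For each member, the genes most alike in the T-cell-like cells were those with the highest log2 ratio of CPM between cells with and without a UMI of the member, taking the lowest value over libraries among 5695 candidate genes. For Tox these were Epha3 (2.22 to 4.18 over 4 libraries), Alcam (1.63 to 2.38) and Trgv2 (1.61 to 4.35), and for Pdcd1 they were Tox (0.99 to 2.02), Tcrg-C2 and Nrp1. For Itga1 they were P2rx7 (1.46 to 4.29), Vav3 and Il12rb2, for Il7r Trdc (1.61 to 4.22), S1pr1 and Tcf7, and for S1pr1, over 2 libraries, Klf2 (1.79 to 2.15), Socs3 and Luzp1. Tigit led to Epha3, Ahr and Usp53, Ctla4 to Rev1, E130308A19Rik and Pdcd1, and Lag3, over 3 libraries, to Pdcd1, Mettl15 and Trgv2. For Cd69 they were Tgtp2 (0.91 to 1.11), Clic4 and Ulbp1, and for Itgae, over 2 libraries, Chn2 (1.48 to 2.57), Ttc39c and Pou2f1. The lowest value over libraries was under 1 for all 3 genes of Pdcd1, Ctla4 and Cd69 and for 2 of the 3 of Tigit and Lag3. In counts this sparse such ratios also carry the depth and the sub-cluster of the cells, and they are given as a description.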

How the data were processed

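Droplet-based 3′ single-cell RNA sequencing was done on 4 libraries, with groups taken from the sample titles. The authors deposited, for each barcode, unnormalized UMI counts of genes; per the file headers the software was Cell Ranger 7.0.1. Per the submitters' processing notes the tools were Cell Ranger 6.0.0 and Seurat 4.3.0.1, with the builds mm10 and GRCh38 and no role given for either. The intron setting and annotation are not given in the sources used here. Total UMIs were 10008987, 17130182, 25099141 and 34721356.

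The members and lists were chosen with earlier results of these data known. Cells with fewer than 500 UMIs, with fewer than 200 genes or with over 10% mitochondrial UMIs were dropped, and Scrublet (scanpy 1.11.5, expected rate 0.05) removed 9, 24, 58 and 124 doublets (0.59%, 0.84%, 1.23% and 1.96%). Clustering used 2000 variable genes, 30 principal components, 15 neighbours and Leiden resolution 1, without the members, lists, ligands, mitochondrial, ribosomal or haemoglobin genes. Classes were named from markers, needing 3 or more markers in 25% or more of a cluster, each raised by 1 or more on the log2 scale.

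After the clusters had been seen, the T cell cluster of 663 cells was split again, and sub-clusters with Cd3e in under 50% of cells or at least 5 markers of another class were left out (25 neutrophil-like, 48 natural killer-like, 21 mixed and 33 cells with microglial markers), which left 536. UMIs were summed per library and scaled to CPM, with exact Poisson intervals. Log2 ratios use a pseudocount of 1 CPM and conditional binomial intervals, at 95%. A gene was rated with at least 20 UMIs over both libraries, and a library at 0 was set to 3 counts to call 2-fold. Shares have Clopper-Pearson intervals.

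All members are named. Of each partner list, up to 6 genes by size of ratio with at least 50 UMIs are named per comparison, ligands above 20 CPM, and the 3 most alike genes per member. Id3, Ahr, Itgb1 and Cxcr6 were added after their values were seen. The dissociation and cell cycle lists were added with the data in view. Intervals were tested on simulated Poisson counts, the model they rest on, so UMIs that gather in single cells were not covered. Alternatives were other T cell definitions, filters, thinning, edgeR 4.0.16 TMM factors (R 4.3.3), leaving out top cells and a trend with gene span (GENCODE M21, 99.8% of genes matched). Other tools were Python 3.11.15, numpy 2.4.6, pandas 2.3.3, scipy 1.17.1, igraph 0.11.9, statsmodels 0.14.6 and matplotlib 3.10.9.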

Additional observations from a re-analysis of the deposited data

Results flagged for a closer look

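The 2 subsets moved in opposite directions for 2 members, with both counting intervals off 0; the difference between subsets was not tested. For stroke over sham isotype, the log2 ratio of Tox was -0.20 (-0.40 to -0.00) in the CD8 subset and 0.74 (0.18 to 1.36) in the no-CD8 subset, where sham had 10 cells and 27 UMIs. In the CD8 subset 103 of the 288 sham UMIs of Tox came from 1 cell, and the CD8 value turned to between 0.0080 and 0.37 under 5 alternatives. For anti-VCAM1 over stroke isotype, the log2 ratio of Il7r was 0.45 (0.12 to 0.77) in the CD8 subset, from 325 to 443 CPM, and -0.69 (-1.17 to -0.24) in the no-CD8 subset, from 733 to 455 CPM. The CD8 value of Il7r was -0.12 when each cell was thinned to 1000 UMIs. The sub-cluster with gamma delta receptor genes, all of whose 26 cells had Il7r, and the Gpm6b-led sub-cluster held 11 and 26 stroke isotype cells against 3 and 0 anti-VCAM1 cells; their part in the Il7r value was not tested.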

How the results depend on the processing

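No paired analysis was possible because each group is 1 library and nothing in the labels pairs them; CD8 and no-CD8 cells were compared within libraries. Of the members' ratios and counts, 1539 values of single genes and 99 of counts and shares stayed, under alternatives, within their interval or 1.5 times, 201 and 21 moved, and 14 ratios whose interval lay off 0 changed sign. Another 84 ratios whose interval held 0 changed sign as well. TMM factors shifted the median of all genes for stroke from -0.02 to 0.12. Thinning to 1000 UMIs gave CD8 shares of 47.7%, 44.5%, 56.0% and 50%, 1 member at least 2-fold higher for anti-VCAM1, 0 for anti-VLA4 and 1 higher with CD8 in all 4 libraries, where a subset at 0 set to 3 counts gave 2. Members at least 2-fold higher for stroke numbered 4 without the top cells (Tigit, Il7r, Lag3 and Ctla4), and 1 without sub-clusters with under 3 cells in a library or without the Gpm6b-led sub-cluster. Those last 2 settings, added after seeing the data, left 0 members lower for anti-VCAM1, and the first of them 2 higher for anti-VLA4. With genes of at least 5 UMIs, 2 were lower for anti-VCAM1, and with the T cell cluster taken whole, 1 was higher. The shares of all genes past 2-fold given earlier are those of the main setting. The member counts under alternatives therefore have no share of all genes beside them. Il7r stopped being lower with CD8 in all 4 libraries, leaving 0 such members, with at least 1000 UMIs and at most 5% mitochondrial, TMM, no top cells, the span trend removed or no small sub-clusters.

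The 14 changes of sign were these. Tox in the CD8 subset, stroke over sham, became 0.13 when thinned, 0.0080 with TMM, 0.37 without top cells, 0.085 with the span trend removed and 0.12 with the cluster whole, and for anti-VLA4 0.017 without small sub-clusters. Il7r in the CD8 subset for anti-VCAM1 was -0.12 when thinned. Lag3 for stroke was -1.16 in all and -0.60 in CD8 cells of the whole cluster. With CD8 over without, Lag3 in anti-VLA4 was -0.72 when thinned, Il7r in sham 0.082 without top cells, Itga1 in anti-VLA4 -0.022 without small sub-clusters, and Ctla4 in anti-VLA4 0.97 without small and 0.67 without the Gpm6b-led sub-clusters. Causes were not tested. A gene with 0 UMIs in the 45 sham T-cell-like cells may have a level of up to 12.3 CPM there.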

Other observations

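The 48 natural killer-like cells left out of the T-cell-like cells (16, 15, 10 and 7 by library) carried several of the same genes. Itga1, which marks resident natural killer cells and type 1 innate lymphoid cells as well as T cells, was at 467 CPM in 34 of 48 cells, Tox at 927 CPM in 36 and Ctla4 at 235 CPM in 15. No S1pr1 or Itgae UMI was found in them. Pdcd1 was found in 8, 2, 4 and 0 of these cells by library, and Lag3 in 5, 2, 0 and 0, among few cells.

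The 33 cells with both T cell and microglial markers had Lag3 at 135 CPM and a median of 11402 UMIs, against 4756 in the Epha3-led T-cell-like cells. Whether they are doublets was not tested.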
